A study of Mus musculus with 42 samples.

Results

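The 7 genes described here, *Sgk1*, *Tsc22d3*, *Fkbp5*, *Zbtb16*, *Hsd11b1*, *Mt1* and *Mt2*, are genes that respond to glucocorticoids or, in the case of *Hsd11b1*, supply them. Every probe set of the array annotated to 1 of these genes alone was taken, which gave 15 of the 45037 probe sets tested and 7 of the 18193 genes named. *Tsc22d3* had 4 probe sets, *Fkbp5* and *Zbtb16* had 3 each, *Mt1* had 2, and the other 3 genes had 1 each. The genes were chosen with their levels in the tissues and their VAAM minus water differences known, so both are given as a description, without a test. Tests are given for the correlations between mice, which the choice of genes did not use. Limma p values are given for other genes, listed for glucocorticoid action, as relatives or partners of the 7, or for zinc handling and acute phase. These too were listed with results of the data known, so they are no independent evidence.

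VAAM is a mixture of amino acids modelled on the saliva of *Vespa* (hornet) larvae. Male ddY mice, 5 weeks old at the start, received 1.8% VAAM or water through a feeding tube at 37.5 μL per g of body weight, 5 times at 1 dose per day. Food was withdrawn from all mice on the day of the last dose, and the liver, a white fat depot (WAT) and brown fat (BAT) were taken 4 h after it. RNA of 7 VAAM and 7 water mice was hybridised to Affymetrix arrays, 14 arrays per tissue and 42 in all. A further group given a casein-like amino acid mixture (CAAM) was not analysed here, and the labels do not name the WAT depot.

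Glucocorticoids (corticosterone in mice) are adrenal steroids whose release follows a daily rhythm and increases with fasting and stress. They bind the glucocorticoid receptor, which enters the nucleus, binds DNA at glucocorticoid response elements, palindromes built on TGTTCT, and raises or lowers transcription nearby. In liver they are known for inducing gluconeogenic and amino acid degrading enzymes, and in fat for effects on lipolysis and adipocyte differentiation. *Hsd11b1* encodes the enzyme that regenerates active corticosterone inside the cell. *Sgk1* encodes a kinase, *Tsc22d3* the leucine zipper protein GILZ, *Fkbp5* a co-chaperone that lowers the receptor's affinity for the hormone, and *Zbtb16* the zinc finger repressor PLZF. *Mt1* and *Mt2* encode metallothioneins, small zinc-binding proteins that are induced by metals through metal response elements as well as by glucocorticoids.

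RefSeq promoter windows were at hand for 6 of the 7 genes, in 13 windows, because *Sgk1* had 6 and *Tsc22d3* had 3 annotated starts. The 250 bases upstream of 3 starts are shown. The *Sgk1* window was picked from its 6 because it alone held a full palindrome. Those of *Mt1* and *Mt2* are shown because these genes varied most closely together. Capitals in the *Sgk1* window mark a match to the full palindrome (AGAACA and TGTTCT, set 3 bases apart), and capitals in the *Mt1* and *Mt2* windows mark matches to the metal response element core, written here as TGCACNC or TGCGCNC, on either strand. Sequences run 5′ to 3′ on the strand of the gene, in build GRCm38.p6.
Sgk1 (chr10:21993640-21993889, plus strand): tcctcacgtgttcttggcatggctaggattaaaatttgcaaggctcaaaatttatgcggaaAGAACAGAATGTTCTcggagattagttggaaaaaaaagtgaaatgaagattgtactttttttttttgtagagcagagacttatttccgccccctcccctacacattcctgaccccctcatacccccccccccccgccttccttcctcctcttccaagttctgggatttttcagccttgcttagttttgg
Mt1 (chr8:94178839-94179088, plus strand): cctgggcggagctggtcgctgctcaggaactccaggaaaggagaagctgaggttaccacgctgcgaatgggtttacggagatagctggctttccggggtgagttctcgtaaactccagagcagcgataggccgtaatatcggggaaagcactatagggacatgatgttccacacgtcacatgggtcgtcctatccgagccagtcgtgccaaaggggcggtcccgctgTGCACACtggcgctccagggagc
Mt2 (chr8:94172368-94172617, plus strand): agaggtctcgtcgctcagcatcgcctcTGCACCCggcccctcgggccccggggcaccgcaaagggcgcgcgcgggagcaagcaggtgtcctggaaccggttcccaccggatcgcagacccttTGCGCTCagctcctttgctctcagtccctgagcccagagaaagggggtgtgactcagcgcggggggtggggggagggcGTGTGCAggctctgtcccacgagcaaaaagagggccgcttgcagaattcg
The palindrome in the *Sgk1* window began 189 bases upstream of that start. Only 3 of the 32851 promoter windows of this length held it, or 0.00913%, and no other window of the 7 genes did. As the window was picked for this match, nothing is read from its rarity. TGTTCT alone, which the palindrome also holds, was found on either strand in 16.1% of all windows. The *Mt2* window held 3 matches to the metal response element core, at 223, 128 and 50 bases upstream, and the *Mt1* window held 1, at 23 bases upstream. At least 1 such match was found in 21.4% of all windows and 3 or more in 1.26%. These are matches of letters within these windows, not binding sites.

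The values are logarithms, read here as log2 although no source names the base. They come from the distribution free weighted (DFW) summary, which shrinks deviations among arrays to an extent that varies by probe set: the median SD of a probe set was 1.08e-05 in liver, 1.41e-05 in WAT and 1.06e-05 in BAT. A difference is therefore VAAM minus water, divided by the pooled SD within groups (± SE), and not a fold change. All 6 hepatocyte markers in liver, all 5 adipocyte markers in WAT and all 6 brown adipocyte markers in BAT read above the array median. The mean level of epididymis markers in WAT ranged over 7.7785 to 13.3389 on VAAM arrays and 7.1074 to 11.8207 on water arrays, and that of skeletal muscle markers in BAT over 7.0697 to 10.8414 on VAAM arrays and 7.1960 to 11.1000 on water arrays. VAAM array 6 of liver, VAAM array 1 of WAT and VAAM arrays 3 and 5 of BAT stood apart (beyond 2.2 SD on any of 3 principal components). In whole tissue, fewer cells of a type and less RNA per cell cannot be told apart.

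The VAAM mean of *Sgk1* was above the water mean in all 3 tissues. In liver, *Sgk1* read 8.8475, 8.8481 and 8.8496 (lowest, median and highest of 7) on VAAM arrays and 8.8442, 8.8457 and 8.8480 on water arrays. All 7 VAAM arrays lay above the water median and 4 lay above every water array, but the groups overlapped through water array 6. The liver difference was +2.46 ± 0.734 SD (n = 7 each), and +3.57 SD without that array. In BAT it was +1.07 ± 0.578 SD, with 9.9888, 9.9974 and 10.0010 on VAAM arrays and 9.9823, 9.9889 and 9.9993 on water arrays, and 6 of 7 VAAM arrays above the water median. In WAT it was +0.82 ± 0.56 SD, with 10.0865, 10.0928 and 10.1072 on VAAM arrays and 10.0811, 10.0849 and 10.1011 on water arrays. The WAT groups overlapped over most of their range, although all 7 VAAM arrays exceeded the water median.

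*Tsc22d3*, whose product GILZ acts against inflammation, had higher VAAM means in liver and BAT and nearly equal means in WAT by its representative probe set, while over its 4 probe sets and 3 tissues 7 of 12 means were higher and 5 lower. The representative probe set (1420772_a_at) read 9.4565, 9.4586 and 9.4615 on liver VAAM arrays and 9.4541, 9.4553 and 9.4615 on liver water arrays. All 7 VAAM arrays were above the water median, and the highest water array, array 6, reached the highest VAAM level to the 4 decimals given. The liver difference was +1.32 ± 0.599 SD with all arrays and +2.94 SD without water array 6. In BAT the probe set read 9.0311, 9.0426 and 9.0590 on VAAM arrays and 9.0221, 9.0275 and 9.0528 on water arrays, a difference of +1.01 ± 0.573 SD with all 7 VAAM arrays above the water median. In WAT the VAAM arrays read 10.5714, 10.5748 and 10.5768 and the water arrays 10.5725, 10.5729 and 10.5778, a difference of +0.04 ± 0.535 SD. The probe set 1425281_a_at followed these values at +1.22, -0.01 and +0.97 SD in liver, WAT and BAT, and its deviations correlated with those of 1420772_a_at at r of 0.98 to 0.99. The probe set 1444365_at went the other way in liver (-0.90 ± 0.565 SD) and did not correlate with it there beyond the adjusted threshold (r 0.42, exact permutation p 0.12, adjusted p 0.213). Its level was low, above 35.9% of all probe sets in liver, 51.3% in WAT and 51.5% in BAT, with a pooled SD of 7.06e-06 in liver. This probe set gave -0.17 SD in WAT and +0.32 SD in BAT, and 1425557_x_at gave +0.50 SD in liver, -0.05 SD in WAT and -0.21 SD in BAT.

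*Zbtb16*, whose product PLZF is a transcriptional repressor, was the member with lower VAAM means throughout, in 9 of 9 combinations of its 3 probe sets with the 3 tissues, from -1.24 to -0.48 SD. In liver, 1419874_x_at, 1427638_at and 1439163_at read above 27.7%, 55.3% and 58.3% of all probe sets, and in BAT above 21.5%, 61.7% and 56.5%. Whether such low or middling levels exceed background was not tested. In liver, 1439163_at read 6.9216, 6.9221 and 6.9224 on VAAM arrays and 6.9219, 6.9225 and 6.9234 on water arrays. None of the 7 VAAM arrays was above the water median, and the difference was -1.14 ± 0.583 SD. In BAT, 1427638_at read 7.079547, 7.079602 and 7.079623 on VAAM arrays and 7.079587, 7.079619 and 7.079685 on water arrays, or -1.24 ± 0.591 SD, with 1 VAAM array above the water median. This BAT difference shrank to -0.09 SD after quantile normalization of the arrays. In WAT, where the gene read highest, 1419874_x_at gave 9.1727, 9.1818 and 9.1853 on VAAM arrays and 9.1782, 9.1828 and 9.1932 on water arrays, a difference of -0.66 ± 0.551 SD. The probe sets are not independent evidence of each other, as their deviations correlated at r of 0.41 to 0.88 in liver, 0.82 to 0.89 in WAT and 0.75 to 0.92 in BAT.

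*Fkbp5*, a gene widely used as a readout of receptor activity, had VAAM means close to the water means. Its representative probe set 1416125_at read 9.5666, 9.5838 and 9.5922 on liver VAAM arrays and 9.5663, 9.5806 and 9.5994 on liver water arrays, which overlapped fully (-0.01 ± 0.535 SD). In WAT it read 9.9544, 9.9651 and 9.9814 on VAAM arrays and 9.9619, 9.9649 and 9.9759 on water arrays (-0.17 ± 0.536 SD). In BAT it read 8.1611, 8.1742 and 8.1931 on VAAM arrays and 8.1642, 8.1697 and 8.1916 on water arrays (+0.12 ± 0.535 SD). The spread was wide on both sides, and the 9 combinations of its probe sets and tissues lay between -0.24 and +0.33 SD. Both ends came from 1447736_at, at the bottom of the arrays, above 0.124% of all probe sets in liver and 0.229% in BAT. *Hsd11b1*, the corticosterone-regenerating enzyme, was -0.86 ± 0.563 SD in liver, where it read 13.664252, 13.664258 and 13.664264 on VAAM arrays and 13.664258, 13.664261 and 13.664267 on water arrays. In WAT its difference was +0.06 ± 0.535 SD and in BAT -0.37 ± 0.54 SD, with overlapping groups in both. The range of *Hsd11b1* in liver is at the limit of the decimals, and quantile normalization left a difference of 0.00 SD.

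The metallothionein genes differed little between the groups by their most intense probe sets. For *Mt1*, 1422557_s_at read 13.0917, 13.0936 and 13.0960 on liver VAAM arrays and 13.0893, 13.0938 and 13.0958 on liver water arrays (+0.32 ± 0.539 SD), and its differences were -0.35 ± 0.539 SD in WAT and -0.20 ± 0.536 SD in BAT. *Mt2* gave +0.43 ± 0.542 SD in liver, -0.10 ± 0.535 SD in WAT and +0.10 ± 0.535 SD in BAT. The other *Mt1* probe set, 1451612_at, read far lower and had higher VAAM means in all 3 tissues, at +0.86 ± 0.563 SD in WAT and +2.25 ± 0.704 SD in BAT. In liver it read 7.5204, 7.5318 and 7.5384 on VAAM arrays and 7.5141, 7.5202 and 7.5405 on water arrays, with all 7 VAAM arrays above the water median. In BAT it read 7.0999, 7.1031 and 7.1058 on VAAM arrays and 7.0974, 7.0987 and 7.1027 on water arrays, with 5 of 7 VAAM arrays above every water array. The *Mt1* probe sets did not follow each other from mouse to mouse (r 0.19, 0.22 and 0.08 in liver, WAT and BAT, exact permutation, adjusted p 0.469 or more over 39 pairs of probe sets of 1 gene). Instead, 1451612_at correlated with *Sgk1* in liver (r 0.76, rho 0.66, adjusted p 0.0123 by exact permutation, r 0.56 without the 2 farthest arrays) and WAT (r 0.79, rho 0.80, adjusted p 0.00603, r 0.76 without the 2 farthest). The liver r with *Sgk1* was 0.30 within the VAAM group and 0.97 within the water group. The probe set also correlated with *Tsc22d3* in liver (r 0.73, adjusted p 0.0282 by exact permutation, r 0.15 without the 2 farthest) and WAT (r 0.71, adjusted p 0.0123, r 0.49 without the 2 farthest). In BAT neither relation passed (r 0.38 with *Sgk1* and 0.52 with *Tsc22d3*, adjusted p 0.265 and 0.132). With *Mt2* it passed in no tissue (r 0.14, 0.38 and 0.19, adjusted p 0.265 or more over 9 relations). These 9 relations, with *Mt2*, *Sgk1* and *Tsc22d3* only, were added after the data had been seen, and the p values were adjusted over them alone. How many of all genes reach such an r with 1451612_at was not computed. What this probe set measures was not tested, and *Mt1* is taken from 1422557_s_at elsewhere.

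**Figure D1:**
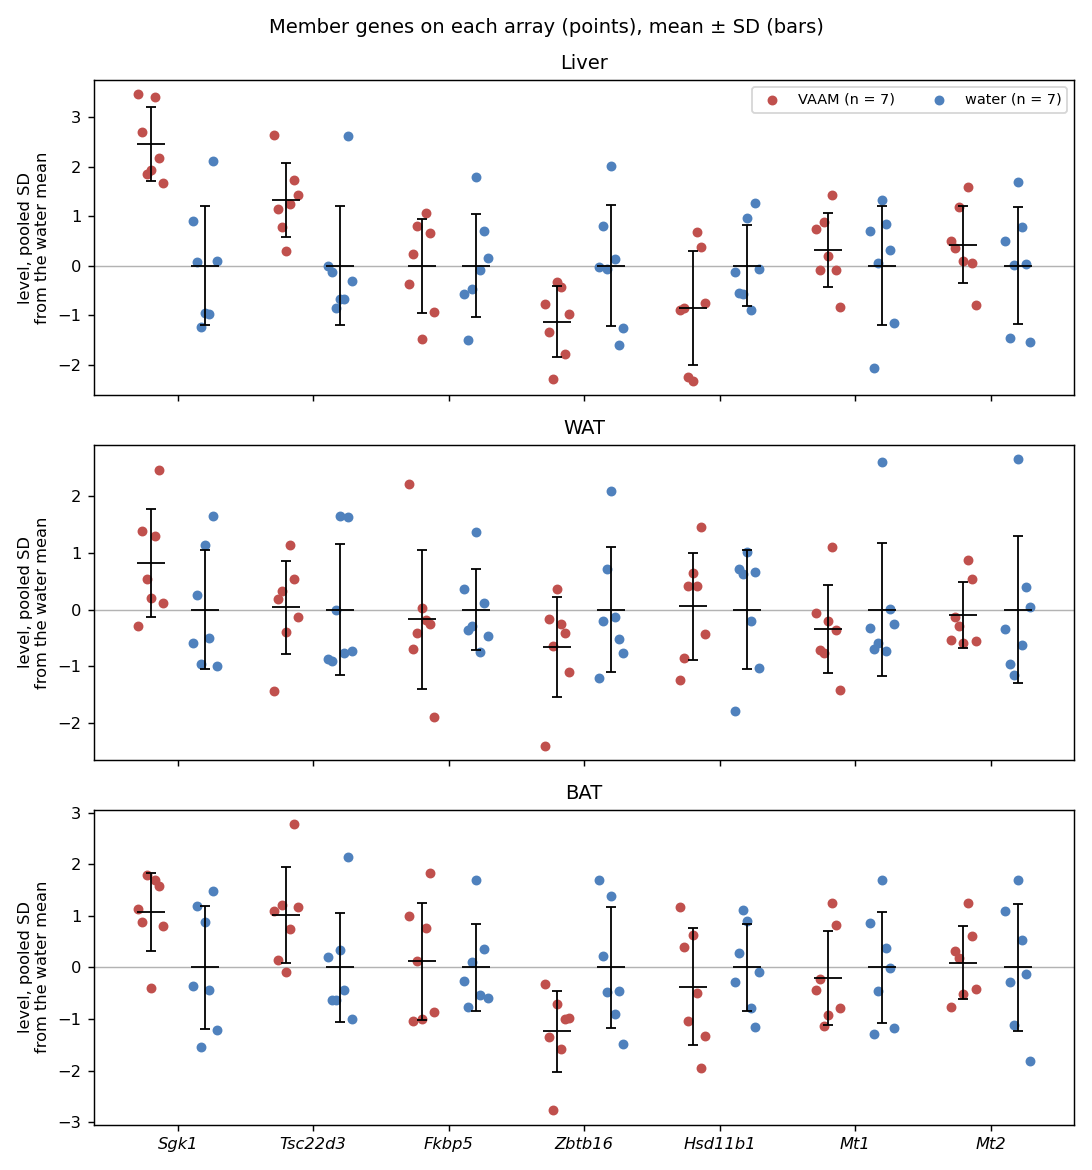
Level of the representative probe set of each gene on every array, in pooled SD from the water mean (vertical axis), for liver, WAT and BAT; VAAM arrays stand left and water arrays right, and bars give the mean ± SD of 7 arrays. *Sgk1* in liver has the largest difference plotted (+2.46 SD), while *Tsc22d3* in liver has 1 water array among the highest VAAM values.

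**Figure D2:**
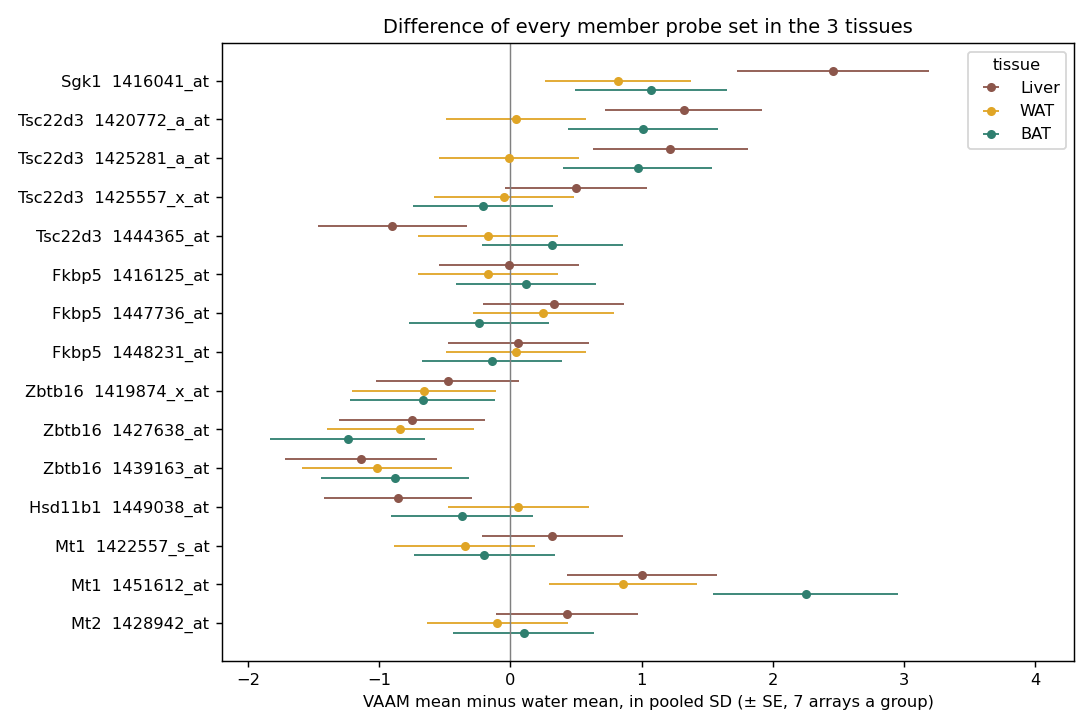
VAAM mean minus water mean in pooled SD (horizontal axis, ± SE, 7 arrays a group) of all 15 probe sets in 3 tissues. The *Zbtb16* probe sets lie below 0 in all 9 combinations, and the *Mt1* probe sets disagree, by +2.25 SD for 1451612_at against -0.20 SD for 1422557_s_at in BAT.

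The groups overlapped in all 45 combinations of probe set and tissue. Over all probe sets they failed to overlap in 0.0733% (higher) and 0.0822% (lower) in liver, 0.0244% in each direction in WAT, and 0.0422% and 0.0533% in BAT. With limma and Benjamini-Hochberg adjustment over 45037 probe sets, 0 probe sets passed in any tissue (0% in each direction), the 15 included. By limma without adjustment (p under 0.05), 3 of the 15 read higher and 1 read lower in liver (4.17% and 4.92% of all probe sets), 0 in either direction in WAT (1.65% and 2.1%), and 1 higher and 1 lower in BAT (2.16% and 2.93%). The rank products method, which the study's methods name, called 7 of 15 higher and 2 lower in liver (2.69% and 1.44% of all), 2 and 3 in WAT (1.99% and 1.47%), and 5 and 4 in BAT (2.15% and 2.25%). It favours probe sets with a wide spread and called *Fkbp5* 1416125_at both higher and lower in liver and in BAT. With every probe set scaled to unit SD, its calls among the 15 were *Sgk1* in liver and *Mt1* 1451612_at in BAT, both higher. That setting called 0.402% of all probe sets higher and 0.295% lower in liver, 0.0688% and 0.0666% in WAT, and 0.147% and 0.0688% in BAT. Since the genes were chosen on this contrast, nothing is read from these counts.

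By the probe sets given here, the order of levels over the tissues differed between some of the genes and was shared by others. *Hsd11b1* read highest in liver, at a mean of 13.66, against 11.61 in WAT and 11.05 in BAT. *Sgk1* read 10.09 in WAT, 9.99 in BAT and 8.85 in liver, and *Tsc22d3* 10.57 in WAT, 9.46 in liver and 9.04 in BAT. *Fkbp5* was lowest in BAT at 8.17, against 9.97 in WAT and 9.58 in liver. *Zbtb16* read highest in WAT by every probe set, but the gap depended on the probe set. In WAT, liver and BAT, 1419874_x_at read 9.18, 6.35 and 6.27, 1439163_at 8.47, 6.92 and 6.93, and 1427638_at 7.27, 6.84 and 7.08. *Mt1* read 13.09 in liver, 13.06 in BAT and 11.93 in WAT, and *Mt2* 12.69 in liver, 11.89 in BAT and 11.59 in WAT. The arrays of 1 tissue and those of another did not overlap for 14, 15 and 15 of the 15 probe sets (liver against WAT, liver against BAT, WAT against BAT), but the same held for 99.7%, 99.8% and 99.6% of all probe sets. Whether the authors summarised the tissues together is not stated, so these levels are set side by side only.

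The spread between mice was not free of the choice of genes, since the differences they were chosen on are divided by the pooled SD. Which group had the lower SD was not itself used, and it is given as a description. The SD was lower on VAAM arrays than on water arrays for 13 of the 15 probe sets in liver, against 50.5% of all probe sets, and for 12 of 15 in WAT, against 37%. In BAT it was lower for 6 of 15, against 35.6%. By the representative probe sets alone it was lower for 6 of 7 genes in liver, 6 in WAT and 5 in BAT. *Sgk1* in liver had an SD of 0.000846 on VAAM arrays and 0.00136 on water arrays, and *Mt2* in WAT 0.00202 and 0.00449. Single water arrays stood far out for some of these genes. In liver and BAT, the *Tsc22d3* level of water array 6 was far above the other 6, and in WAT the *Mt1* and *Mt2* levels of water array 4 were. As probe sets of 1 gene share their RNA, no test was made over them.

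Deviations of the arrays from their group means were then correlated between the genes, over 14 arrays a tissue, with exact permutation within groups, two-sided, and p adjusted over 63 combinations. *Mt1* and *Mt2*, neighbours on chromosome 8, varied together in liver (r 0.95, rho 0.98, adjusted p 0.000129), WAT (r 0.89, rho 0.68, adjusted p 0.0216) and BAT (r 0.84, rho 0.79, adjusted p 0.0166). In liver r was 0.95 within the VAAM group and 0.96 within the water group, and in BAT 0.78 and 0.89. In WAT r was 0.44 without the 2 arrays farthest from the median, so it rests on those, and the pair no longer passed without VAAM array 5 or water array 4 or 6 (lowest r 0.66, highest adjusted p 0.0888 by exact permutation). After quantile normalization the liver r was 0.32, which did not pass, and by rho the pair passed in liver but not in WAT or BAT (adjusted p 0.0759 and 0.0537 by exact permutation). Over all genes the median r with *Mt1* was 0.05 in liver, 0.01 in WAT and 0.08 in BAT, and *Mt2* ranked 1 among 18192 genes in liver, 1 in WAT and 3 in BAT. A probe set ending in _s_at may match transcripts of more than 1 gene, and how far this adds to the correlation was not tested.

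*Sgk1* and *Tsc22d3* formed the other pair. Their r was 0.81 in liver (rho 0.71, adjusted p 0.0216) and 0.78 in WAT (rho 0.71, adjusted p 0.0299), and 0.64 in BAT, where it missed the threshold (adjusted p 0.0945). In liver r was 0.56 within the VAAM group and 0.91 within the water group, and 0.60 without the 2 arrays farthest from the median. In WAT r was 0.73 and 0.82 in the same groups and 0.75 without the 2 farthest. Water array 6, high for both genes in liver, WAT and BAT, bears on the liver value: the pair no longer passed without water array 1 or 6 (lowest r 0.63, highest adjusted p 0.0918 by exact permutation). In WAT it no longer passed without VAAM array 1 or any of water arrays 1, 4, 5, 6 and 7 (lowest r 0.7, highest adjusted p 0.0888). *Tsc22d3* ranked 8 among 18192 genes by its r with *Sgk1* in liver, 42 in WAT and 134 in BAT. By rho, neither value passed the adjusted threshold (adjusted p 0.0759 in both tissues).

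In all, 2 of 21 pairs passed in liver, 3 in WAT and 1 in BAT, all positive. These counts depended on the processing: after quantile normalization they were 2, 15 and 9, and by gene means 0 in liver and 0 in BAT. The third WAT pair was *Tsc22d3* and *Mt2* (r 0.74, rho 0.71, adjusted p 0.0299 by exact permutation, 0.51 without the 2 farthest), which was lost without VAAM array 5 or 6 or water array 4, 5 or 6. Without water array 4 or water array 6, 0 pairs passed in WAT by exact permutation. *Fkbp5*, which hardly differed between the groups, varied with *Mt1* at r of 0.62 in liver, 0.61 in WAT and 0.66 in BAT, with adjusted p of 0.0975, 0.0975 and 0.0924. By rho it passed in WAT (rho 0.82, adjusted p 0.0264 by exact permutation, r 0.83 without the 2 farthest), the 1 WAT pair that did. With *Sgk1* its r was 0.12, 0.05 and 0.45. *Zbtb16* had r of -0.34 with *Sgk1* in liver, 0.40 in WAT and 0.10 in BAT (adjusted p 0.501, 0.349 and 0.885). *Hsd11b1* and *Tsc22d3* had r of 0.54 in liver and 0.61 in WAT but -0.61 in BAT (adjusted p 0.101, 0.0975 and 0.0975), and the difference between tissues was not tested.

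**Figure D3:**
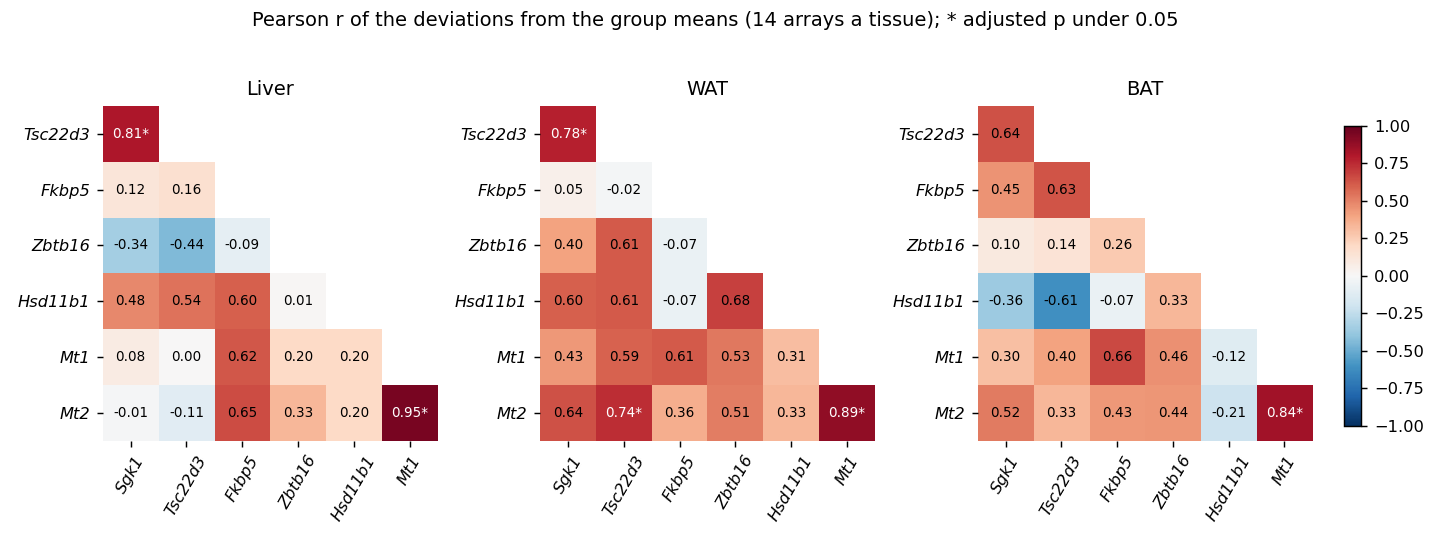
Pearson's r between the deviations of each pair of genes from their group means in liver, WAT and BAT (14 arrays each; colour scale from -1 to 1). Asterisks mark adjusted p under 0.05: *Mt1* with *Mt2* passes in all 3 tissues and *Sgk1* with *Tsc22d3* in liver (0.81) and WAT (0.78).

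The labels number the mice 1 to 7 within a group in every tissue, and they do not state that a number marks the same mouse. Deviations of the same gene in same-numbered arrays of a pair of tissues had r above 0 in 19 of 21 combinations, with a median of 0.55. Over all genes the median r was 0.06 for liver and WAT, 0.12 for liver and BAT and 0.13 for WAT and BAT. After adjustment over 21 combinations, 5 passed by exact permutation: *Sgk1* in WAT and BAT (r 0.73, rho 0.71, adjusted p 0.043), *Fkbp5* in liver and BAT (r 0.69, rho 0.60, adjusted p 0.043), *Mt2* in liver and BAT (r 0.75, rho 0.69, adjusted p 0.043), and *Mt1* in liver and BAT (r 0.71, rho 0.71) and in WAT and BAT (r 0.69, rho 0.49), both at adjusted p 0.043. Without the 2 farthest arrays, r was 0.68 for *Sgk1*, 0.55 for *Fkbp5*, 0.53 for *Mt2*, 0.50 for *Mt1* in liver and BAT, and 0.21 for *Mt1* in WAT and BAT. Such values were not rare: an r at least as high was found in 2.52% of all genes for *Sgk1*, 2.9% for *Fkbp5*, 1.47% for *Mt2*, and 2.48% and 3.53% for the same *Mt1* combinations. *Hsd11b1* alone had r below 0, at -0.29 in liver and BAT and -0.19 in WAT and BAT. None of the 5 passed by rho (adjusted p 0.0999 or more, exact permutation) or after quantile normalization, where *Mt1* in liver and BAT had r of -0.21. Leaving out VAAM number 4, 5 or 7 or water number 1, 3, 4, 5, 6 or 7 left 0 calls, and leaving out water number 2 left 1.

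The water arrays numbered 6 and 4 illustrate the pattern. Water array 6 was 2.11, 1.65 and 1.49 SD above the water mean for *Sgk1* in liver, WAT and BAT, and 2.63, 1.62 and 2.15 SD for *Tsc22d3*. Its metallothionein levels stayed near the water mean, at 0.31, 0.02 and -0.01 SD for *Mt1*. Water array 4 was instead high for *Mt1* (1.32, 2.6 and 1.7 SD), *Mt2* (1.7, 2.65 and 1.7 SD) and *Fkbp5* (1.78, 1.37 and 1.7 SD) in liver, WAT and BAT. For *Sgk1* it was -0.96 SD in liver, 1.14 SD in WAT and 0.89 SD in BAT. These arrays were picked after their values had been seen.

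**Figure D4:**
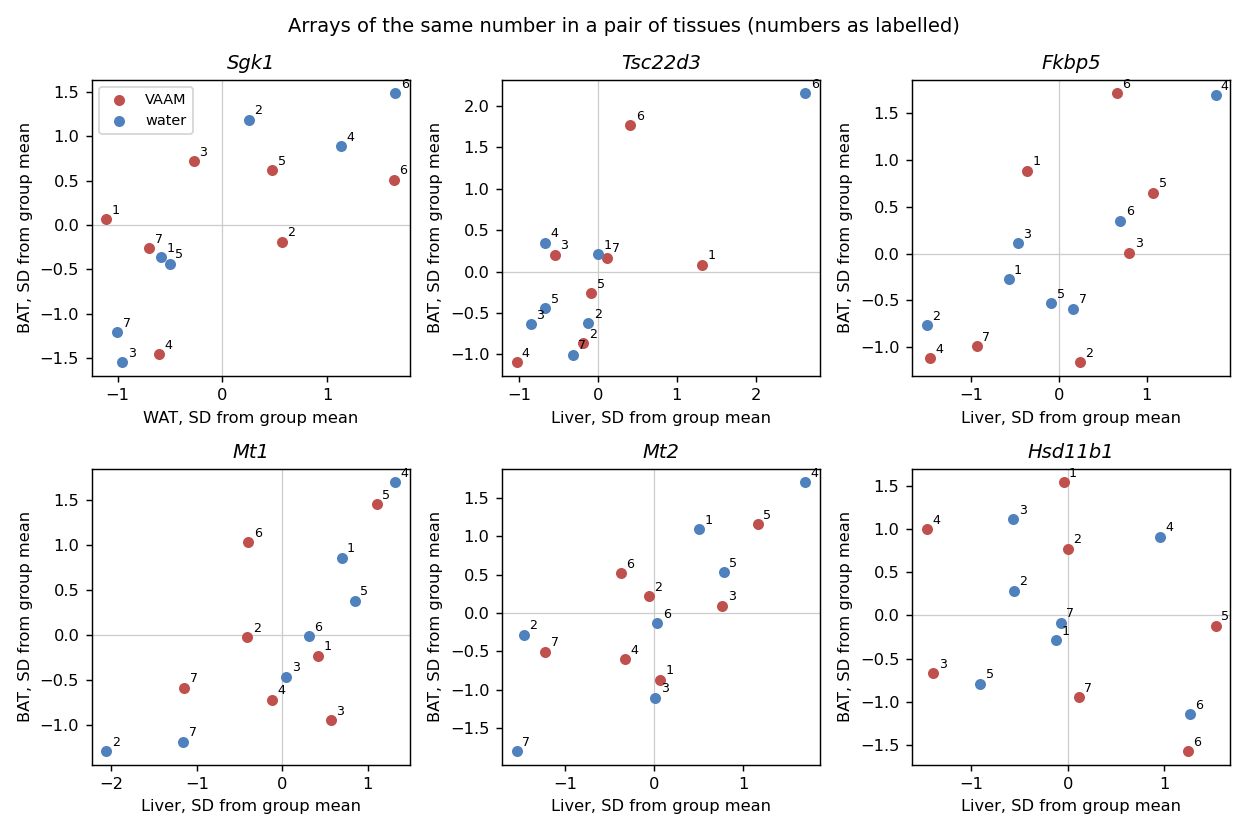
Deviation from the group mean in pooled SD in 1 tissue (horizontal axis) and another (vertical axis), for arrays with the same number; VAAM in red, water in blue, labels give the number. *Sgk1*, *Fkbp5*, *Mt1* and *Mt2* run from lower left to upper right (r 0.69 to 0.75), and *Hsd11b1* does not (r -0.29).

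By their pattern over all 42 arrays, as deviations from the mean of tissue and treatment at unit SD, the genes most like *Sgk1* were *Klf2*, a zinc finger factor (r 0.77), and the clock repressor *Cry1* (r 0.77). Those most like *Tsc22d3* were *Nfkbia*, the inhibitor of NF-κB (r 0.80), and the interleukin 6 receptor gene *Il6ra* (r 0.76). *Fkbp5* was nearest to *Galnt11* (r 0.74) and *Retreg1* (r 0.73), and *Zbtb16* to *Zfp703* (r 0.65) and *Ablim3* (r 0.64). *Hsd11b1* was nearest to *Maff* (r 0.62) and *Gm26910* (r 0.61). *Mt1* and *Mt2* both had *Gm11827* as the nearest gene outside the 7 (r 0.74 and 0.68), followed by *Mtap* (r 0.73) for *Mt1* and *Gm38983* (r 0.66) for *Mt2*. These r are descriptions over arrays that share their tissue, and no p is attached.

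Of 79 other genes listed, 73 were measured. Besides genes of glucocorticoid action they include 10 paralogs and partners of the 7 genes. A further 10 were listed for metallothionein and zinc handling and 9 for interleukin 6 and acute phase. The pooled counts are therefore not those of a glucocorticoid-responsive set. In liver 53 of the 73 had higher VAAM means and 20 lower, with a median of +0.44 SD. Over all 18193 genes, 8529 were higher and 9663 lower there, with a median of -0.05 SD. In BAT 51 were higher and 22 lower (9354 and 8839 of all genes), with a median of +0.37 SD against +0.02 SD. In WAT 38 were higher and 35 lower (9147 and 9045 of all genes), with a median of +0.03 SD against 0.00 SD. With limma, 0 of the 73 passed the adjusted threshold in any tissue. Without adjustment (p under 0.05), 12 read higher and 2 lower in liver (3.96% and 4.84% of all genes), 7 higher and 0 lower in BAT (2.12% and 2.24%), and 1 higher and 0 lower in WAT (1.6% and 1.86%). Rank products, which favours probe sets with a wide spread, called 24 higher and 8 lower in liver (2.69% and 1.44% of all probe sets). It called 15 and 5 in BAT (2.15% and 2.25%) and 10 and 4 in WAT (1.99% and 1.47%). At unit SD it called 1 in all, higher in BAT, where it called 0.147% of all probe sets higher. After quantile normalization the unadjusted counts of higher genes were 8 in liver, 4 in BAT and 0 in WAT, where 310, 43 and 14 of all 45037 probe sets were higher. Single arrays moved them: 11 were higher in BAT without VAAM array 4 and 4 without water array 3, and in WAT 5 were higher without water array 6.

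Among the regulators induced by glucocorticoids, 6 of 20 were higher and 2 lower at unadjusted p in liver, and 4 were higher in BAT. *Errfi1*, which encodes an inhibitor of the EGF receptor, was +1.60 ± 0.627 SD in liver, with 12.8826, 12.8830 and 12.8833 on VAAM arrays and 12.8815, 12.8823 and 12.8830 on water arrays (limma p 0.00894, adjusted p 0.425). In BAT it was +2.21 ± 0.699 SD, with 8.2098, 8.2160 and 8.2224 on VAAM arrays and 8.1962, 8.2030 and 8.2161 on water arrays (limma p 0.00107, adjusted p 0.901). All 7 VAAM arrays lay above the water median in both tissues, and the groups overlapped in both. *Dusp1*, a phosphatase that inactivates MAP kinases, was +1.63 ± 0.63 SD in liver (limma p 0.00804, adjusted p 0.413) and the 1 gene past the unadjusted threshold in WAT, at +1.51 ± 0.617 SD (limma p 0.0131, adjusted p 1). In BAT the clock gene *Per1* was +1.81 ± 0.65 SD (adjusted p 0.912), the factor *Cebpd* +1.72 ± 0.639 SD (adjusted p 0.926) and *Nfkbia* +1.28 ± 0.595 SD (adjusted p 0.946), all by limma and with all 7 VAAM arrays above the water median. The 2 lower genes in liver, named after their values had been seen, were the kinase gene *Map3k6*, a MAP kinase kinase kinase (-1.47 ± 0.613 SD), and the cell cycle inhibitor *Cdkn1a* (-1.19 ± 0.587 SD).

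Among the paralogs and partners of the 7 genes, 2 of 10 were higher at unadjusted p, both in liver. *Sgk3*, a kinase related to *Sgk1*, read 8.585040, 8.585246 and 8.585457 on VAAM arrays and 8.584413, 8.584903 and 8.585151 on water arrays, or +1.85 ± 0.655 SD (limma p 0.00358, adjusted p 0.371). *Tsc22d2*, a relative of *Tsc22d3*, was +1.59 ± 0.625 SD (limma p 0.00951, adjusted p 0.429). Of the enzymes and secreted proteins induced in liver, 3 of 11 were higher there, with *Igfbp1*, which binds insulin-like growth factors, at +1.44 ± 0.61 SD (8.8610, 8.9521 and 9.0241 on VAAM arrays, 8.7892, 8.8254 and 8.9865 on water arrays; limma p 0.0163, adjusted p 0.464). *Il6ra* was the 1 of 9 interleukin 6 and acute phase genes past the unadjusted threshold in liver (+1.49 ± 0.615 SD, adjusted p 0.448). Of the receptor and its chaperones, 0 of 7 passed it in liver. In BAT 2 of 7 did, the glucocorticoid receptor gene *Nr3c1* (+1.40 ± 0.606 SD, adjusted p 0.933) and its coactivator *Ncoa2* (+1.31 ± 0.598 SD, adjusted p 0.946). The genes of steroid supply and breakdown and of metallothionein and zinc handling had 0 of 6 and 0 of 10 past it in each of the 3 tissues.

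**Figure D5:**
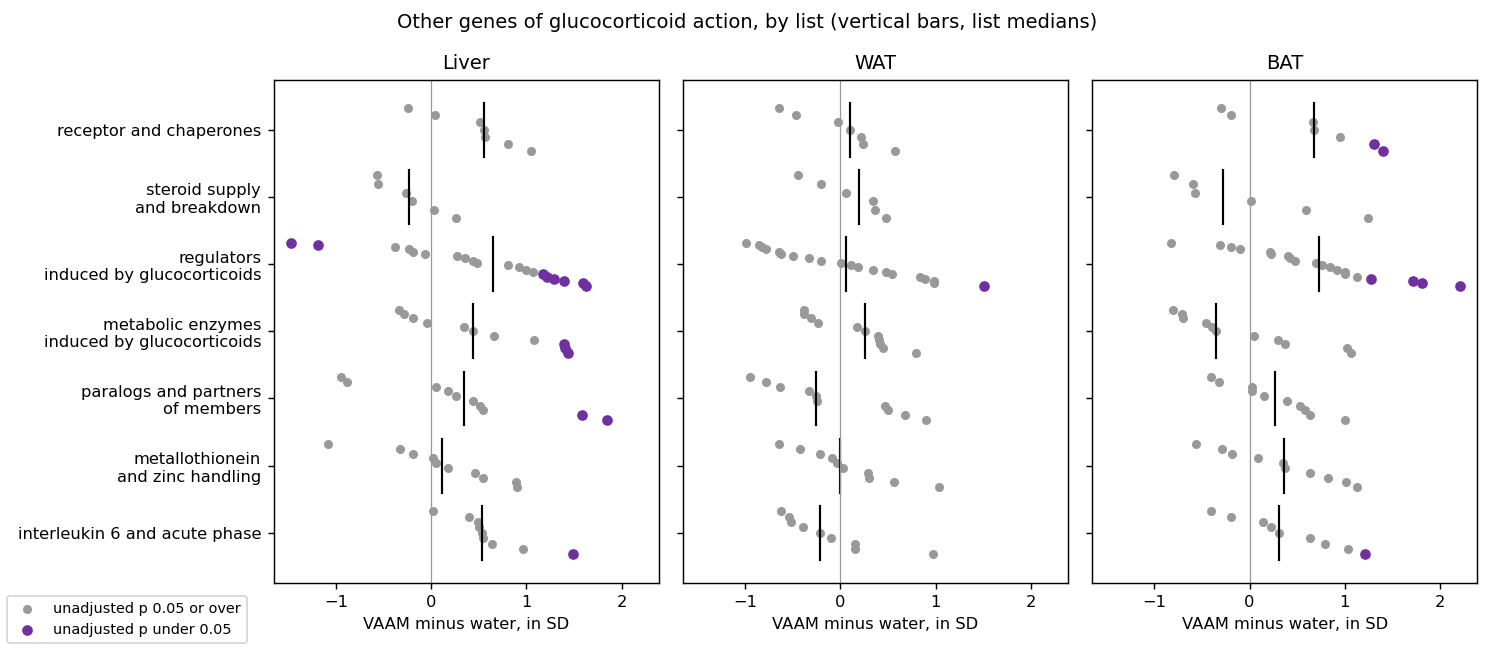
VAAM minus water in pooled SD (horizontal axis) of the 73 other listed genes by list (vertical axis), in liver, WAT and BAT. The lists include paralogs and partners, zinc handling and acute phase genes besides genes of glucocorticoid action. Purple points had an unadjusted limma p under 0.05 and vertical bars give list medians. The medians of the induced regulators are +0.65 SD in liver, +0.06 SD in WAT and +0.73 SD in BAT, and no gene passed the adjusted threshold.

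The levels of epididymis markers in WAT and of muscle markers in BAT were set against the deviations of the 7 genes, in 14 relations. None passed the adjusted threshold by exact permutation (lowest adjusted p 0.215), and 3 had an unadjusted p under 0.05, all in WAT: *Tsc22d3* (r -0.61, rho -0.51), *Zbtb16* (r -0.58, rho -0.19) and *Hsd11b1* (r -0.56, rho -0.21). For *Sgk1* r was -0.27 with epididymis markers in WAT and -0.43 with muscle markers in BAT. The part of these tissues in the WAT and BAT differences above was not tested.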

How the data were processed

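RNA of 7 VAAM and 7 water mice per tissue was measured on 42 Affymetrix arrays. The authors summarised them by DFW in R (version 2.7.2 in the submitters' processing notes). They deposited logarithms, treated here as log2 on the basis of their range. The table holds 45101 probe sets, of which 64 controls were left out. Genes come from the platform annotation: 34945 probe sets name 1 gene, 932 several and 9160 none. Each gene was read in each tissue from its brightest probe set on average, among probe sets of that gene only. The number of arrays limits the precision. Limma p values weigh a difference against the spread between mice of a group, and permutation p values weigh a correlation against reordered mice.

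Within a tissue, VAAM was set against water by limma 3.58.1 (R 4.3.3; Benjamini-Hochberg, 0.05, no filter on low values). Rank products were computed over 49 pairs of arrays with 50 permutations at a false discovery rate of 0.05. Correlations used deviations from group means and all 5040 orders of the mice within each group, two-sided. Limma and rank products at unit SD were run on simulated independent normal values, which lack the correlations between genes and the outlying arrays of these data. Rank products without that scaling were not checked. The exact permutation was compared with a direct count of all orders on a small set of random values. Python 3.11.15, numpy 2.4.6, pandas 2.3.3, scipy 1.17.1 and matplotlib 3.10.9 were used.

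The member genes and all lists were chosen with earlier results of these data known. Comparisons between probe sets of a gene, with marker levels and with all genes were added after seeing the data. CAAM arrays were not analysed here. Of the pathway genes, at most the 6 with the smallest unadjusted p under 0.05 in a tissue were named by rule, and for each member the 2 genes most like it. *Map3k6* and *Cdkn1a* fall outside this rule and were named after their values had been seen. Alternatives were quantile normalization, probe sets above the median, a trend and robust prior, array weights, a replicate block, 1 fit over all tissues, rank products, gene means, group medians, Spearman's rho, and leaving out arrays that stood apart or each array in turn. Promoter windows (250 of 300 bases) are from RefSeq, GRCm38.p6.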

Additional observations from a re-analysis of the deposited data

Results flagged for a closer look

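Of 42 groups of 7 arrays tested for a single array far from the rest, 4 held one. The limit passes about 1 in 20 groups of independent normal values, and the share over all genes was not computed. These groups are not independent, since *Mt1* and *Mt2* varied together and the same array numbers recur. Nothing is therefore read from this count. The *Tsc22d3* level of liver water array 6 was 9.4615, against 9.4559 for the next water array, a gap of 0.755 of the range of the group. In BAT the water array of the same number was also the highest, at 9.0528 against 9.0353 for the next, a gap of 0.572 of the range. In WAT, water array 4 was the highest for *Mt1*, at 11.9371 against 11.9297 for the next (0.775 of the range), and for *Mt2*, at 11.6028 against 11.5949 (0.592 of the range). None of these arrays was among those that stood apart on the principal components.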

How the results depend on the processing

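With limma, 0 probe sets passed adjustment in each tissue. With 1 fit over all tissues, 326 were higher and 365 lower in liver, 67 and 62 in WAT, and 101 and 214 in BAT, with 5 pathway genes higher in liver and 1 in BAT. Unadjusted, that fit gave 1611 higher and 1797 lower in WAT and 2119 lower in BAT, and pathway genes were 2 higher and 4 lower in WAT and 4 higher and 1 lower in BAT. Rank products called 1213 higher and 647 lower in liver, 898 and 663 in WAT, and 968 and 1013 in BAT (pathway genes 24 and 8, 10 and 4, 15 and 5). At unit SD it called 181 and 133, 31 and 30, and 66 and 31, with 1 pathway gene, higher in BAT. After quantile normalization 1 probe set was lower in liver after adjustment, and unadjusted counts were 310 higher and 3000 lower in liver, 14 higher and 74 lower in WAT, and 43 and 73 in BAT, with pathway genes 1 lower in liver, 0 higher in WAT and 4 higher in BAT. Of probe sets above the median, 1234 were higher and 911 lower in liver, 230 and 613 in WAT, and 547 and 575 in BAT, with 1 pathway gene lower in liver. Array weights gave 3 pathway genes higher in WAT, and leaving out arrays that stood apart gave 2.

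The labels do not say that the numbers 1 to 7 pair VAAM with water mice. Same-numbered arrays correlated at -0.13 to 0.14 in liver, -0.08 to 0.48 in WAT and -0.19 to 0.17 in BAT. Of the 7 numbers, 1, 3 and 3 matched best with their own. Whether a number marks anything the arrays share, such as their order, was not tested. The replicate block gave 1 probe set higher in liver after adjustment and 1472 lower in WAT unadjusted, with pathway genes 5 higher and 1 lower in WAT and 13 higher in BAT. In this balanced design the block cannot change a member difference (*Sgk1* in liver 2.46 SD), which therefore says nothing of its stability.

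Leaving out each array in turn gave 0 to 4 probe sets higher and 0 to 1 lower after adjustment in liver, and unadjusted 1363 to 2220 and 1714 to 2729 in liver, 660 to 964 and 702 to 1221 in WAT, and 813 to 1263 and 1055 to 1687 in BAT. Pathway genes ranged over 9 to 15 higher and 1 to 4 lower in liver (4 without water array 6), 1 to 5 and 0 to 2 in WAT (2 lower without VAAM array 5), and 4 to 11 and 0 to 1 in BAT. The liver difference was 2.31 to 3.57 SD for *Sgk1* and 1.16 to 2.94 SD for *Tsc22d3*, highest without water array 6 for both. Correlating pairs numbered 1 to 3 in liver, 0 to 4 in WAT, 1 to 2 in BAT and 0 to 6 between tissues.

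*Zbtb16* in BAT was -0.09 SD after quantile normalization, and *Mt1* in BAT 1.39 SD by gene means. Of 21 combinations of gene and tissue, 11 kept their sign or reached 0.00 under every alternative and 10 changed it under some. Correlating pairs after quantile normalization numbered 15 in WAT, 9 in BAT and 0 between tissues, where *Mt1* in liver and BAT reversed to -0.21. Gene means gave 0 pairs in liver, 0 in BAT and 3 between tissues, Spearman's rho 1 in liver, 1 in WAT (*Fkbp5* with *Mt1*, which did not pass by r), 0 in BAT and 0 between tissues, and leaving out arrays that stood apart 2 in BAT and 2 between tissues. The causes were not tested.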
